A study of Mus musculus with 16 samples.

Results

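Distal intergenic regions are stretches of open chromatin that lie between genes and away from any gene start. Peaks of open chromatin on the 19 autosomes were merged across 16 ATAC-seq libraries of cultured mouse CD8+ T cells, and a merged region was kept when 2 to 4 libraries held a peak in it, when it touched no gene body and when it lay more than 10 kb from every transcription start. Regions next to chromosome ends were left out, with a midpoint required to be above 3.3 Mb and more than 300 kb from the end. The rule was met by 20489 of 510542 merged autosomal regions, or 4.01%, and these are called members here. The members were thus chosen by the number of libraries that held a peak, which is itself a measured value, and that number is given as a description and not as a result.

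The series asked how the pyruvate dehydrogenase complex, the enzyme that turns pyruvate into acetyl-CoA, bears on the chromatin of CD8+ T cells that are cultured toward effector (TE) or memory (TM) states. TPdh-/- mice carried a floxed Pdha1 gene, which encodes the E1 alpha subunit, and a Cre recombinase driven by Cd4 regulatory sequence, and WT controls were labelled TPdh+/+. By the study's methods, OT-I T cells from male and female mice of 8 to 12 weeks were activated with ovalbumin peptide for 3 days and then kept for 4 days with IL-2 for TE or with IL-15 at 10 ng/mL for TM. Each of the 4 groups (TE and TM cultures of either genotype) had 4 libraries, and the labels do not say which of them came from separate mice, so p-values measure the spread between these libraries. Cd4-driven Cre acts while T cells develop, so the cells lacked the gene before the cultures began, and activation with ovalbumin peptide was shared by all groups.

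ATAC-seq reads out where a transposase can cut DNA, which marks chromatin that is free of tightly packed nucleosomes. Open sites far from genes often act as enhancers or insulators: they bind transcription factors such as AP-1, RUNX and ETS proteins in T cells, or the insulator protein CTCF, and can reach a promoter through looping. Such sites tend to differ more between cell states than promoters do. In a bulk library, a site open in fewer cells and a site less open in every cell cannot be told apart.

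The 16 libraries differed in depth and in the length of their peak lists. Lists held 2270 to 84359 autosomal peaks, 628947 in all, and 45732 of those peaks lay in members. By group they held 2270 to 18783 peaks in WT TE, 32144 to 76520 in TPdh-/- TE, 13039 to 53626 in WT TM and 58421 to 84359 in TPdh-/- TM. The background coverage under the peaks, which is the mean number of fragments expected over a base, was 0.636 to 1.55 in WT TE, 0.173 to 0.445 in TPdh-/- TE, 0.354 to 0.572 in WT TM and 0.186 to 0.261 in TPdh-/- TM. The groups therefore differed in coverage, and their coverage and their genotype or culture cannot be told apart where they do not overlap. Cell identity was hard to read from these files: a peak stood within 1000 bp of a start of Cd3e in 2, Cd3g in 3, Lck in 6, Cd8a in 3, Cd8b1 in 8 and Ptprc in 4 of 16 libraries, and of Cd2 in none. The B cell gene Cd79a and the myeloid genes Spi1 and Lyz2 had such a peak in no library, while Pax5 had one in 1, Ebf1 and Cebpa in 2 and Csf1r in 4.

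The sequences below, each 200 bases of GRCm38 on the plus strand around the highest summit of the region, show the kinds of DNA that carry the results that follow. They are the GC-rich region with the highest median fold enrichment among members of 4 libraries, a dinucleotide repeat, regions that the libraries of 1 group shared, and members near the genes of the homing receptor Ccr7 and of interferon gamma. Capitals mark matches to the AP-1 (TGANTCA), RUNX (TGTGGTT) or NFAT (TGGAAAA) motif on either strand.
Region near Gm11084 and Sp3os, chr2:73012800-73012999: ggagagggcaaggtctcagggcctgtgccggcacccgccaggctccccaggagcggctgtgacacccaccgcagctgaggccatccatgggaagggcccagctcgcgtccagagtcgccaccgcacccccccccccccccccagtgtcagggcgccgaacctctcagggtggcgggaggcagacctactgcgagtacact
Dinucleotide repeat region held by TPdh-/- TE, chr2:47220878-47221077: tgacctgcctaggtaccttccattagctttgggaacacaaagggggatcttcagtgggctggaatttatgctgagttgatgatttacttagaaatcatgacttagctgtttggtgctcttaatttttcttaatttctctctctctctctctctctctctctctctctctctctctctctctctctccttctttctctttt
Region near Scd1 held by WT TE, chr19:44388489-44388688: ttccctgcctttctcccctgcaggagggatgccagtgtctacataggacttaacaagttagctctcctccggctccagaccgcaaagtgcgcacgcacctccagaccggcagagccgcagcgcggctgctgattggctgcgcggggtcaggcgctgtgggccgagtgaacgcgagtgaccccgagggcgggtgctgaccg
Region near Cenpf held by TPdh-/- TM, chr1:189608965-189609164: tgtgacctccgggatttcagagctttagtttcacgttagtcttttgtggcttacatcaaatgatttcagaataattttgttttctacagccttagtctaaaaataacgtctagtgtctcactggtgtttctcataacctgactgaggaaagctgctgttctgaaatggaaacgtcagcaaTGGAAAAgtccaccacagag
Region near Zbtb10 held by TPdh-/- TM, chr3:9153702-9153901: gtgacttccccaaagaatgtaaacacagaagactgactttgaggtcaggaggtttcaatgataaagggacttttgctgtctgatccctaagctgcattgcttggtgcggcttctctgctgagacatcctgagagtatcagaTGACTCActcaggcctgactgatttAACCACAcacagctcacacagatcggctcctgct
Region near Ccr7, chr11:99170940-99171139: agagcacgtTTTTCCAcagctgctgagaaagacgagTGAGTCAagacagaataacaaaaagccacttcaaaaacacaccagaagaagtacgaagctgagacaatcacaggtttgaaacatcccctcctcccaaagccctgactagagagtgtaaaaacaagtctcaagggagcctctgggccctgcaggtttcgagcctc
Region near Ifng, chr10:118470941-118471140: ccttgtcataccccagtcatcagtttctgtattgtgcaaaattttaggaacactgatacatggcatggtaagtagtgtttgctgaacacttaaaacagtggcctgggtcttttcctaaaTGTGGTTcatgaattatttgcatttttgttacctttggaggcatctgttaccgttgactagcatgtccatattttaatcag

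Members were short, weak and seldom shared. Of the 20489, 16566 (80.9%) were held by 2 libraries, 3158 (15.4%) by 3 and 765 (3.73%) by 4, and their median width was 369 bp (124 to 2020). The median distance from a member to the nearest transcription start of any gene was 37110 bp, and 16.9% of members lay over 100 kb away. The member nearest to a start was 10005 bp away with a highest fold enrichment of 5.89, and the nearest region that the rule left out was 10000 bp away with 4.21. The highest fold enrichment of a member, which is the pileup of fragments at its summit over the local background, had a median of 5.34 (3.09 to 29.1), and the pileup behind it a median of 6 fragments. A fold enrichment of 10 or more was reached by 535 members (2.61%). A merged region can be a chain of peaks that overlap only in part, and all its holding libraries shared at least 1 base in 74.3% of the members held by 3 libraries and in 57.3% of those held by 4. At this depth a library without a peak in a member cannot be read as closed there.

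Nearly 1 member in 2 sat on a simple tandem repeat. A run of at least 12 CA, TG, GA or TC units, 24 bases or more, stood within 150 bases of the highest summit in 9942 members (48.5%), with CA or TG runs in 34.5% and GA or TC runs in 21.9%. Windows of the same length placed 1000 bases to either side of the summits held such a run in 3.96% and 3.86%. The share was 46.1% of the members held by 2 libraries, 59.4% of those held by 3 and 55.0% of those held by 4. The repeats were searched for after the printed sequences had been seen.

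The same repeats marked intronic regions held by as many libraries, and they were fewer in regions that 1 library held. Over all regions of each kind the share was 48.2% of 13956 intronic regions, 21.4% of 8176 regions within 1000 bp of a start, 17.2% of 156921 distal intergenic regions held by 1 library, 26.0% of 504 held by 5 or more and 19.5% of all merged regions. Within each library, peaks in members carried a dinucleotide repeat more often than peaks in distal regions of that library alone, by 25.6 percentage points ± 7.58 (SD, n = 16; higher in 16 of 16, two-sided exact sign permutation p = 3.05e-05, the smallest possible, adjusted p = 6.1e-05 over 2 such results). Against intronic regions the difference was 0.0442 points ± 4.19, with an exact permutation p of 0.978. With only peaks of a -log10 q of at least 5, the difference from single-library distal peaks was 8.90 points (exact permutation p = 0.0538). The repeats were searched for because printed members showed them, so these p-values are not independent support. Each member also enters the values of 2 to 4 libraries, so the 16 differences are not independent.

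Other sequence features separated the members from both kinds of region. The share of the window that is soft-masked as a repeat of any kind was higher than in intronic regions by 5.11 points ± 2.16 (SD, n = 16) and higher than in single-library distal regions by 5.41 points ± 2.17, each in 16 of 16 libraries (exact sign permutation p = 3.05e-05, adjusted p = 7.63e-05 over 5 results). GC content differed from that of intronic regions by -0.754 points ± 0.571 and was lower in 13 of 16 libraries (exact permutation p = 0.000671, adjusted p = 0.000839). It was higher than in single-library distal regions by 0.962 points ± 0.393, in 15 of 16 libraries (exact permutation p = 6.1e-05, adjusted p = 0.000102). The median fold enrichment of peaks in members and in intronic regions differed by 0.0153 ± 0.0693 (exact permutation p = 0.418). Members and intronic regions are each held by 2 to 4 libraries, so the same regions enter the values of several libraries. The 16 differences are thus not independent, and these p-values do not allow for that.

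**Figure D1:**
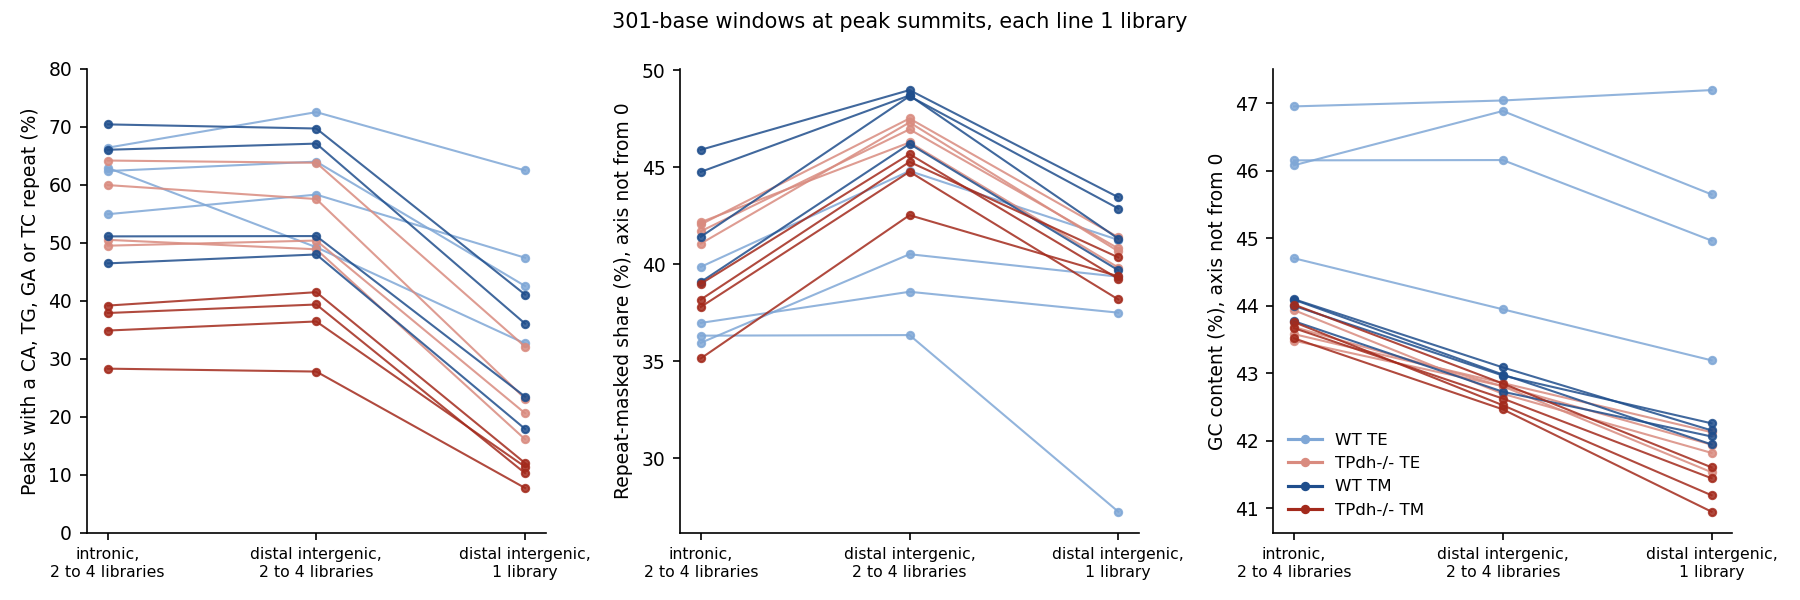
The left plot gives the percent of peaks whose window of 150 bases to each side of the summit held a CA, TG, GA or TC repeat, the middle plot the mean percent of the window masked as a repeat and the right plot its mean GC content in percent, for peaks in intronic regions held by 2 to 4 libraries, in the members and in distal intergenic regions held by 1 library. Each line is 1 of 16 libraries, and all 16 lines drop from the members to the single-library regions in the left and middle plots.

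Members with a dinucleotide repeat were taller than the rest, as a description. Their highest fold enrichment had a median of 5.87 against 4.92 in the 10547 members without one, and 382 against 153 of them reached 10-fold. They were held by 3 or 4 libraries in 23.1% of cases against 15.4%. Both kinds had nearly the same GC content, 42.8%, and a like median distance to a start, 37720 bp and 36729 bp. TPdh-/- TM libraries stood apart in which kind they held: at least 1 of them held 5510 members with a repeat and 7782 without, whereas WT TM held 5233 and 4247, TPdh-/- TE 6682 and 6041 and WT TE 1452 and 857.

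Motifs of the factors known from T cell enhancers were about as frequent or less frequent at member summits than beside them, over all members. The AP-1 motif stood in 8.21% of the windows of 150 bases to each side of a member summit and in 9.42% and 9.08% of windows 1000 bases to either side, and in 8.40% of windows of the same length at all merged regions. RUNX was found in 6.51% against 6.55% and 6.44% beside and 6.78% over all regions, and the ETS motif (AGGAAGT) in 6.62% against 7.09% and 7.32% beside and 7.08% over all. The T-box motif (GGTGTGA) was found in 3.78% of members, 3.81% and 3.96% beside them and 3.87% of all regions. TCF/LEF (CTTTGAT) stood in 4.75% against 5.97% and 6.09% beside and 5.16% over all, and NFAT in 8.44% against 10.5% and 10.1% beside and 8.36% over all. CTCF was the motif of the 7 searched whose share was above both flanks, with 0.322% of member windows against 0.2001% and 0.151% beside them and 0.270% over all regions, which is 66 members in number. A window in which matches of 2 motifs overlap counts for both.

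Members without a dinucleotide repeat held each motif more often than members with one. AP-1 stood in 8.79% against 7.60%, RUNX in 7.20% against 5.77%, ETS in 7.81% against 5.35%, T-box in 4.44% against 3.08% and CTCF in 0.465% against 0.171%. In the members without a dinucleotide repeat, the shares of RUNX, ETS, T-box and CTCF were above those of both flanks of all members. AP-1, TCF/LEF (5.29%) and NFAT (9.37%) were below both flanks. The 765 members held by 4 libraries held ETS in 9.67% and RUNX in 8.24%. Distal regions held by 5 or more libraries, which are not members, held RUNX in 13.3% and ETS in 9.33%. A match is a matter of letters and says nothing of binding.

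**Figure D2:**
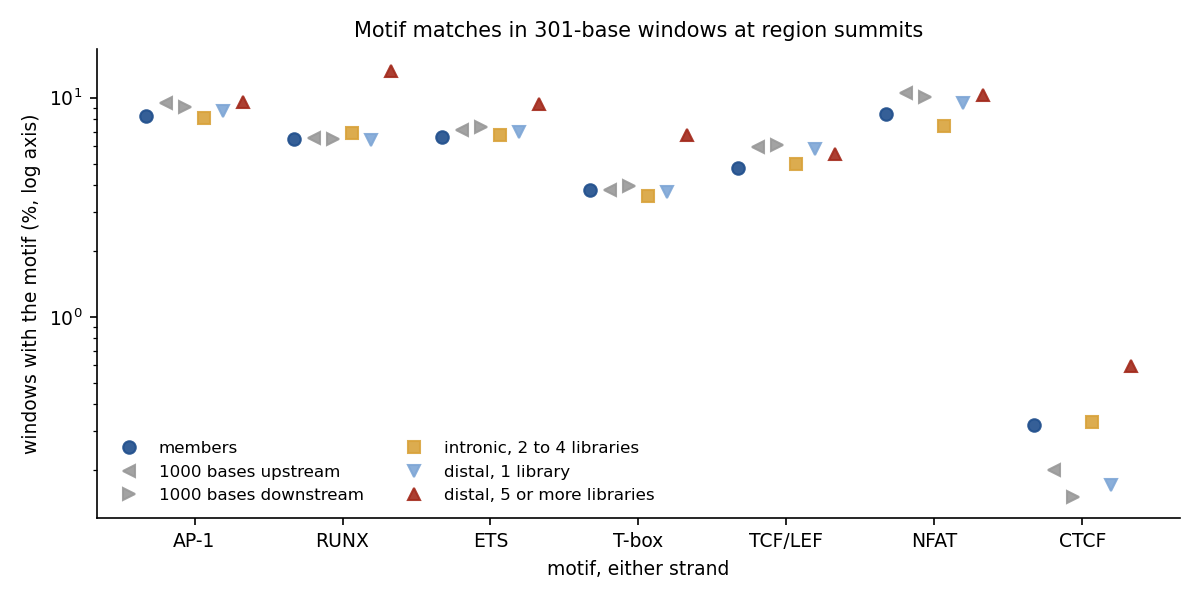
The percent of windows, 150 bases to each side of a summit, with at least 1 match on either strand is plotted on a log axis for 7 motifs, at member summits, 1000 bases upstream and downstream of them, and at the summits of intronic and other distal regions. Member values lie within or below the flanking values except for CTCF, where the member share of 0.322% stands above both flanks.

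Members were common around genes of T cells. Of 49 genes in 5 lists of T cell genes, 40 (81.6%) had a member within 100 kb of a start, against 45.2% of 20807 autosomal protein-coding genes and 10 of 16 genes of B, myeloid and non-immune cells. Part of this moved with how much intergenic sequence a gene has: per Mb of sequence that could hold a member, the count was 41.9 around the T cell genes, 28.4 around the genes of other cells and 26.5 around all genes. A member held by 3 or 4 libraries stood near 22 of the 49 T cell genes and 3 of the 16 others, where 16.5% of all genes had one. The lists hold well-known genes chosen with earlier results of these data known, so the counts are a description and no test was made.

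Per list, members numbered 60.01 per Mb around effector molecules, the genes of the killing machinery and its receptors, 49.4 around receptors and homing genes, 48.3 around memory and quiescence factors, 28.4 around effector factors and 27.7 around the genes of T cell identity. Around B cell and myeloid genes there were 34.2 per Mb, above the last 2 of these lists, and around non-immune genes 24.7.

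Leaving out members with a dinucleotide repeat lowered each of these densities. A member without one was near 27 of 49 T cell genes (55.1%) and 7 of 16 others, against 32.2% of all genes, or 20.2 per Mb around T cell genes against 14.2 around all. Such members were densest around effector molecules, with 9 of 10 genes and 37.8 per Mb. Around the genes of T cell identity the count was 3 of 10 genes and 7.39 per Mb, around effector factors 4 of 10 and 9.46 per Mb, around memory and quiescence factors 6 of 10 and 28.6 per Mb, and around receptors and homing genes 5 of 9 and 22.2 per Mb. B cell and myeloid genes had 4 of 8 and 19.6 per Mb, close to the 5 T cell lists together, and non-immune genes 3 of 8 and 12.4 per Mb. Held by 3 or 4 libraries and free of such repeats, members stood near 7 of the 10 effector molecules and 12 of the 49 T cell genes, against 7.99% of all genes and 1 of the 16 others.

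**Figure D3:**
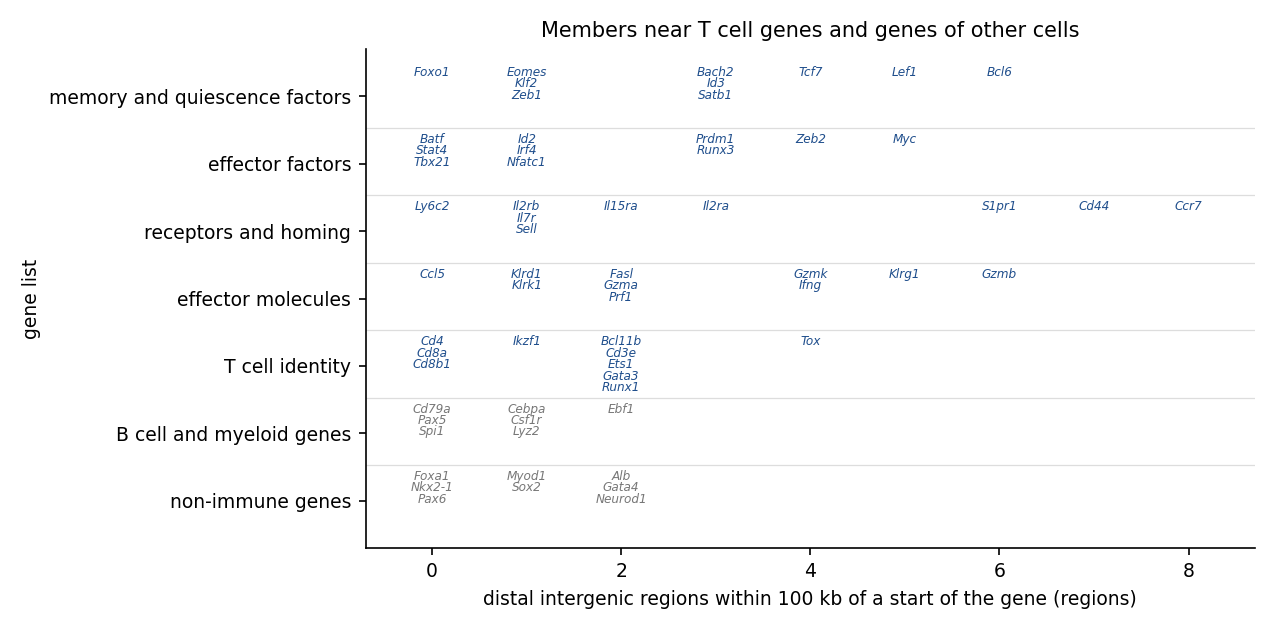
Each gene symbol is placed at the number of members within 100 kb of its transcription starts (horizontal axis, regions), by gene list, with T cell lists in blue and lists of other cells in grey, where 1 gene is not shown. Ccr7 with 8, Cd44 with 7 and Bcl6, S1pr1 and Gzmb with 6 had the most, and no gene of the 2 grey lists had over 2.

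Among effector molecules, Gzmb (granzyme B, a protease of cytotoxic granules) had 6 members nearby, Klrg1 (an inhibitory receptor of terminal effectors) 5, and Gzmk (granzyme K) and Ifng (interferon gamma) 4 each. Gzma, Prf1 (perforin, which opens pores in target cells) and Fasl (a death ligand) had 2 each, Klrk1 and Klrd1 shared 1, and Ccl5 had none. The member near Ifng whose sequence is printed above (chr10:118470527-118471251, 29480 bp from its start) was held by 1 library of each group: its fold enrichment was 6.28 in WT TE 1, 4.08 in TPdh-/- TE 4, 3.33 in WT TM 1 and 7.14 in TPdh-/- TM 2. These peaks form a chain: the WT TE 1 and WT TM 1 peaks end before the TPdh-/- TM 2 peak begins, and the printed window with its RUNX match is covered by the peak of TPdh-/- TM 2 alone. Another Ifng member, chr10:118494210-118494825, carried a dinucleotide repeat and was held by 3 TPdh-/- TE libraries and no other, with a highest fold enrichment of 6.34. The member of most libraries near Prf1 (chr10:61396063-61397094, 96262 bp away and 12533 bp from Pald1) was held by 3 TPdh-/- TM libraries and 1 WT TM library. It too is a chain, and the TPdh-/- TM 2 peak ends before those of TPdh-/- TM 3 and TPdh-/- TM 4 begin.

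Receptors and homing genes had the largest clusters. Ccr7, the chemokine receptor that takes T cells into lymph nodes, had 8 members between chr11:99105146 and chr11:99177270, on both sides of the gene, 5 of them without a dinucleotide repeat. The one printed above (chr11:99170716-99171184, 15639 bp from its start, with an AP-1 and an NFAT match) had a fold enrichment of 4.00 in TPdh-/- TE 4, 5.82 in WT TM 1, 3.93 in TPdh-/- TM 3 and 9.05 in TPdh-/- TM 4. The peaks of WT TM 1 and TPdh-/- TM 4 cover the AP-1 match and that of WT TM 1 the NFAT match, while those of TPdh-/- TE 4 and TPdh-/- TM 3 end before both. No WT TE library held the region, though WT TE 2 held 3 of the other Ccr7 members. Cd44, an adhesion receptor that is high on activated T cells, had 7 members, of which the one nearest to its start (10767 bp) was held by 2 WT TM and 2 TPdh-/- TM libraries and no TE library. S1pr1, which lets T cells leave lymph nodes, had 6 and Il7r, the IL-7 receptor alpha chain, 1. Il2ra and Il15ra, which lie side by side, shared the member at chr2:11693424-11694410, held by 3 libraries. The TPdh-/- TM 3 peak there ends before the TPdh-/- TE 2 peak begins.

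Transcription factor genes were less even. Bcl6 had 6 members, Lef1 and Myc 5 each, and Tcf7, Zeb2 and Tox 4 each, while Foxo1, Tbx21, Batf and Stat4 had none. The member of most libraries at Lef1, which encodes a partner of TCF1 in memory cells, was chr3:131056925-131057655 (52816 bp from its start), held by 2 WT TE and 2 TPdh-/- TE libraries and no TM library, and its highest fold enrichment was 6.47. It is a chain of peaks: the TPdh-/- TE 4 peak ends before those of WT TE 1 and TPdh-/- TE 1 begin. Near Bcl6, a repressor linked to memory, chr16:23952145-23952724 was held by 1 TPdh-/- TE, 2 WT TM and 1 TPdh-/- TM library. There the TPdh-/- TE 4 peak ends before the WT TM 2 and WT TM 3 peaks begin. Cd8a, Cd8b1 and Cd4 had none, with 2.63, 2.63 and 21.9 kb of sequence nearby that could hold a member. A Cd3e member, chr9:45020405-45020818, lay 10778 bp from the start, close to the distance limit, and carried a dinucleotide repeat.

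Libraries differed widely in how many members near the T cell genes they held. Of 114 such regions, WT TE libraries held 2 to 16, TPdh-/- TE 11 to 30, WT TM 13 to 26 and TPdh-/- TM 20 to 25. All 4 groups overlapped except WT TE against TPdh-/- TM. As a share of the members a library held, the order was another one, with 0.920 to 2.99% in WT TE, where 2 libraries held only 2 such regions each, and 0.323 to 0.844% over the other 3 groups. At least 1 library held 24 of them in WT TE, 66 in TPdh-/- TE, 60 in WT TM and 72 in TPdh-/- TM.

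Across groups, the number of members held in a library was 67 to 1739 in WT TE, 2703 to 5220 in TPdh-/- TE, 1540 to 3880 in WT TM and 3921 to 4801 in TPdh-/- TM. By library, WT TE held 444, 1739, 67 and 164 members, TPdh-/- TE 3402, 2703, 5220 and 4260, WT TM 3880, 2368, 1540 and 3132, and TPdh-/- TM 3921, 4801, 4059 and 3966. The 2 genotypes did not overlap in TE or in TM, and neither did the lengths of their peak lists. The fold between the geometric means was 1.62 for TPdh-/- TM over WT TM, 12.5 for TPdh-/- TE over WT TE and 8.501 for WT TM over WT TE, and TPdh-/- TM over TPdh-/- TE had a log2 difference of 0.14. Members were selected on how many of these libraries held them, so these numbers and the shares of peaks in members are given as a description, with no test. Each group takes part in 2 of these comparisons. The direction for TPdh-/- TM against WT TM turned when lists were cut to the 2270 peaks with the highest -log10 q (log2 difference -0.20) and when background coverage was a covariate (-0.10). With coverage, WT TM against WT TE also turned, to -0.98, and TPdh-/- TE against WT TE fell to 1.18 on the log2 scale, and with equal-sized lists TPdh-/- TM against TPdh-/- TE turned to -0.16.

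As a share of a library's own peaks, members were fewer in TPdh-/- TM than in WT TM. The share was 6.24% ± 0.519 (SD, n = 4) in TPdh-/- TM, 9.59% ± 1.91 in WT TM, 8.18% ± 1.22 in TPdh-/- TE and 5.13% ± 2.94 in WT TE. TM genotypes did not overlap, with a difference of -3.34 points. It was -0.669 points with background coverage as a covariate and -1.84 points with equal-sized lists. For members without a dinucleotide repeat the difference between TPdh-/- TM and WT TM was 0.0258 points. Peaks in members carried a dinucleotide repeat in 36.3% ± 6.02 of cases in TPdh-/- TM (27.8 to 41.5%), against 59.0% ± 11.005 in WT TM (48.01 to 69.7%), 55.2% ± 6.90 in TPdh-/- TE (48.9 to 63.8%) and 61.0% ± 9.80 in WT TE (49.3 to 72.6%). TPdh-/- TM overlapped none of the other groups, and its differences of -22.7 points from WT TM and -18.9 points from TPdh-/- TE each had an exact permutation p of 0.0286, the smallest that 4 against 4 allows, and an adjusted p of 0.0571. Peaks in intronic regions held by as many libraries separated the same way, with a repeat in 28.3 to 39.2% of cases in TPdh-/- TM against 46.5 to 70.4% in WT TM and 49.5 to 64.2% in TPdh-/- TE, so the difference was not particular to members. With background coverage as a covariate the differences for member peaks were -4.69 points from WT TM (p = 0.429 by exact permutation) and -17.7 points from TPdh-/- TE.

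The median fold enrichment was 4.09 ± 0.103 (SD, n = 4) in TPdh-/- TM and 4.72 ± 0.204 in WT TM, without overlap (difference -0.64, exact permutation p = 0.0286, adjusted p = 0.0571, which does not pass), and 4.45 ± 0.273 in TPdh-/- TE and 4.66 ± 0.0675 in WT TE (difference -0.21, exact permutation p = 0.229). TPdh-/- TM lay below TPdh-/- TE by 0.36 (exact permutation p = 0.0286, adjusted p = 0.0571), and WT TM differed from WT TE by 0.07 (exact permutation p = 0.571). The difference of WT TM from WT TE was 0.90 at a -log10 q of at least 5 and 1.60 with equal-sized lists. It was 0.28 for members of 3 or 4 libraries, 0.32 with coverage as a covariate and -0.0927 for members without a dinucleotide repeat. With equal-sized lists both differences of TPdh-/- TM turned, to 1.00 from WT TM and 0.84 from TPdh-/- TE, and among peaks that reached a -log10 q of 5 they were -0.25 and 0.13. For members of 3 or 4 libraries they were -0.27 and 0.16, and for members without a dinucleotide repeat -0.34 and -0.015. Intronic peaks had median fold enrichments of 3.96 to 4.21 in TPdh-/- TM libraries and 4.43 to 4.86 in WT TM libraries, against 3.96 to 4.21 and 4.43 to 4.89 for members. The median pileup behind these values was 4 fragments in every TPdh-/- TM library, 5 to 7 in WT TM, 4 to 6 in TPdh-/- TE and 7 to 13 in WT TE. In TPdh-/- TM 1 to 4 the medians were 4.10, 3.96, 4.06 and 4.21. These are the ratios that a pileup of 4 gives at their background coverages of 0.22, 0.261, 0.23 and 0.186. Coverage did not overlap between TPdh-/- TM and WT TM, so the test of fold enrichment cannot tell enrichment from coverage there. The GC content of member peaks was 46.0% ± 1.43 in WT TE against 42.8% ± 0.0677 in TPdh-/- TE and 42.9% ± 0.152 in WT TM, each without overlap (exact permutation p = 0.0286, adjusted p = 0.0571), and 42.6% ± 0.168 in TPdh-/- TM. With coverage as a covariate the difference from WT TE was -1.23 points in TPdh-/- TE (exact permutation p = 0.0571) and -0.271 points in WT TM (exact permutation p = 0.543). Peaks in intronic regions held by as many libraries separated the same way in GC content. It was 44.7 to 46.95% in WT TE libraries, 43.5 to 43.9% in TPdh-/- TE and 43.8 to 44.1% in WT TM. The higher GC content of WT TE was thus not particular to members. The part that depth had in these differences was not tested beyond the fits with coverage.

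**Figure D4:**
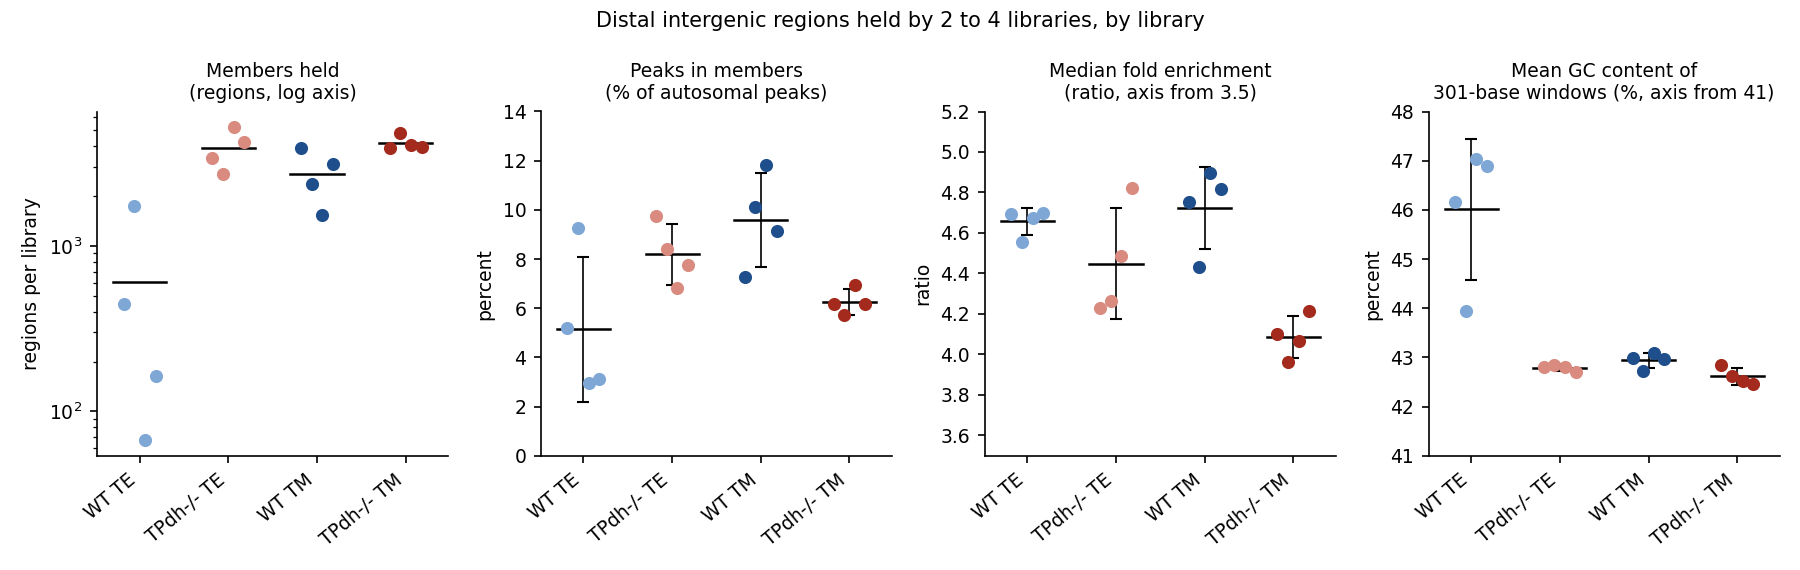
Each point is 1 library and the groups are on the horizontal axis, with the number of members held (log axis), the percent of autosomal peaks that lie in members, the median fold enrichment of those peaks and the mean GC content in percent of their windows. Horizontal bars are arithmetic means and the error bars, drawn in all but the plot with the log axis, SD (n = 4), and TPdh-/- TM stands below WT TM in share and in fold enrichment while WT TE spreads widely in the number held.

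Which libraries shared a member followed group only in part. Of the members, 4844 (23.6%) were held within 1 group, among them 2324 (11.3%) in TPdh-/- TM, 1721 (8.40%) in TPdh-/- TE, 761 (3.71%) in WT TM and 38 (0.185%) in WT TE, where the shares over all 61970 regions held by 2 to 4 libraries were 10.7%, 7.78%, 3.39% and 0.481%. TPdh-/- libraries alone held 9488 (46.3%), WT libraries alone 1182 (5.77%) and both genotypes 9819 (47.9%), whereas 11484 (56.0%) were held in both TE and TM. Over all those regions the shares were 22.4% within 1 group, 43.8% in TPdh-/- alone, 6.36% in WT alone, 49.8% in both genotypes and 57.2% in both TE and TM. At least 1 WT TE library held 11.3% of members and 15.4% of all those regions. The most frequent makeup was 1 TPdh-/- TE with 1 TPdh-/- TM library, in 4606 members. The number shared by a pair of libraries, over the geometric mean of what each held, averaged 14.3% within TPdh-/- TM, 12.9% within TPdh-/- TE, 12.1% between those groups, 9.17% within WT TM, 10.01% between WT TM and TPdh-/- TM and 5.07% within WT TE. Between WT TM and TPdh-/- TE it averaged 10.5%. These shares move with list length and were not tested.

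Few members separated the groups. Their shares were within 1.5 times those of all regions held by 2 to 4 libraries, except where WT TE alone held the region, which was rarer among members. In TM, 107 members (0.522%) were held by 3 or 4 TPdh-/- and no WT library, where the share over all 61970 regions was 0.718%, and 46 (0.225%) by WT and no TPdh-/- library, where it was 0.181%. In TE, 123 (0.600%) were held by TPdh-/- alone (0.537% of all regions) and 7 (0.0342%) by WT alone (0.192%). Between WT cultures 48 (0.234%) were held by TM alone (0.195%) and 5 (0.0244%) by TE alone (0.213%), and between TPdh-/- cultures 104 (0.508%) by TM alone (0.694%) and 105 (0.512%) by TE alone (0.474%). These counts were small under stricter rules. The 107 and 123 members of TPdh-/- TM and TPdh-/- TE fell to 21 and 29 when peaks had to cover 0.5 of a region, to 4 and 3 at a -log10 q of 5 or more, and to 77 and 37 without dinucleotide repeats. No region by itself can pass a test with 4 against 4 libraries over so many regions. Since a member has at most 4 holding libraries, the number of libraries in the rule bears on these counts.

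Those held by all 4 libraries of a group and by no other are few enough to name, with 8 in all. Only those near Cenpf and Zbtb10 have a base that peaks of all 4 libraries cover, and the other 6 are chains of peaks. In WT TE there was 1, chr19:44388386-44388866, a repeat-free stretch with 64.8% GC in its window that lies 17824 bp from Scd1, the gene of a desaturase that makes monounsaturated fatty acids. Its fold enrichment was 5.86, 4.75, 6.10 and 5.47 in WT TE 1 to 4, with 16, 8, 18 and 19 fragments at the summit. All 4 WT TE libraries held it and none of the other 12 did, though the WT TE 3 peak ends before the WT TE 2 peak begins. In TPdh-/- TE there were 3, at chr2:47220700-47221059 (fold enrichments of 3.52, 4.26, 4.77 and 3.46), chr3:137609857-137610553, 11059 bp from Ddit4l, and chr6:44040206-44040605. Those on chromosomes 2 and 3 carried dinucleotide repeats and all 3 had peaks of 7 fragments at most.

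In TPdh-/- TM there were 4, none with a dinucleotide repeat. The tallest, chr1:189608724-189609998, was 1275 bp wide and lay 38858 bp from Cenpf, which encodes a kinetochore protein of dividing cells. Its highest fold enrichment per library was 7.63, 4.82, 6.27 and 10.5 in TPdh-/- TM 1 to 4. The others were chr1:16177122-16178031, 46620 bp from the retinol dehydrogenase gene Rdh10, chr4:129034894-129035649, 22622 bp from the ubiquitin ligase gene Rnf19b, and chr3:9153785-9154639, 95963 bp from the zinc finger gene Zbtb10. At the last, fold enrichment was 5.11, 3.17, 7.38 and 5.15, and of the matches in its printed window 1 library, TPdh-/- TM 3, had a peak over the AP-1 letters and 3 over the RUNX letters. In WT TM no member was held by all 4 libraries alone. Only a pileup of 4 fragments stood behind each of the 4 peaks near Rnf19b.

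The tallest of the named members were held across groups in most cases. Among members held by 4 libraries, the region with the highest median fold enrichment, chr2:73012735-73012921, is 187 bp wide, has 67.8% GC in its window and lies 25494 bp from the antisense gene Sp3os. Its fold enrichment was 14.2 in WT TE 1, 14.1 in WT TE 2, 12.4 in TPdh-/- TE 3 and 11.4 in WT TM 4, on 34, 24, 15 and 17 fragments. It was the highest in WT TE. The highest in WT TM was 17.1 in WT TM 1 at chr13:78972186-78972712, with 4.77 in TPdh-/- TE 3, and the highest in TPdh-/- TM was 18.7 in TPdh-/- TM 3 at chr14:80097019-80097368, 96717 bp from Olfm4. Both carried dinucleotide repeats.

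Tall values in 1 or 2 libraries beside low ones in the rest were common among these. At chr14:114792200-114792666, masked as a repeat over 97.3% of its window, fold enrichment was 15.5 and 16.5 in TPdh-/- TM 3 and TPdh-/- TM 4 but 3.18 in TPdh-/- TE 3 and 3.82 in WT TM 3. Even libraries of the group with the tall values, TPdh-/- TM 1 and TPdh-/- TM 2, had no peak there. By contrast, chr15:62831660-62832041, 844238 bp from Myc, was held by 2 TPdh-/- TE and 2 TPdh-/- TM libraries and no WT library, with 7.90, 9.74, 9.60 and 4.63. Others of this set were at chr1:157877272-157877494 (7.16 to 11.02) and chr1:27690366-27690957 (4.21 to 10.7).

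**Figure D5:**
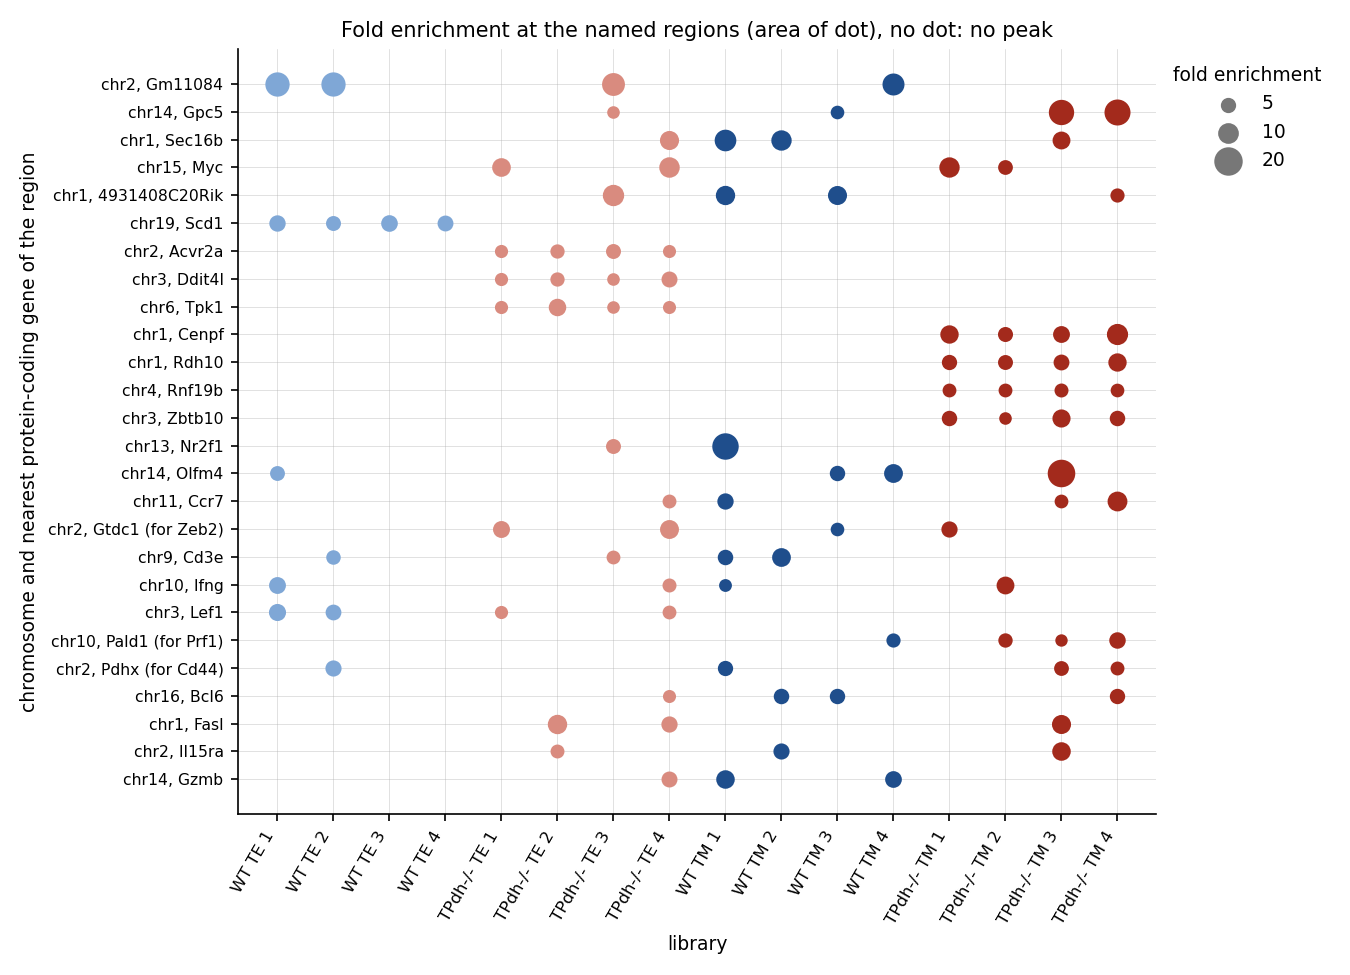
Rows are the named members, by chromosome and nearest protein-coding gene, and columns the 16 libraries. The area of a dot is the fold enrichment of the library's highest peak in the region and a blank means no peak; the largest dot is 18.7 in TPdh-/- TM 3 near Olfm4, and the 4 dots of WT TE near Scd1 lie between 4.75 and 6.10.

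Members lay on every autosome. There were 23.0 per Mb of sequence that met the position rule, from 19.7 on chromosome 4 to 25.2 on chromosome 11. Of 2410 windows of 1 Mb, 2275 held a member, with a median of 8. The fullest window, 115 to 116 Mb of chromosome 13 with Itga1, Gm49395 and Pelo, held 36 members from 14 libraries. The next, 112 to 113 Mb of chromosome 11 with Sox9, a developmental regulator, held 35 and the third, 147 to 148 Mb of chromosome 3 without a protein-coding gene, 32, each from 13 libraries. In these windows, in that order, TPdh-/- TM held 24, 27 and 21 of the members, TPdh-/- TE 20, 23 and 16, WT TM 18, 13 and 19 and WT TE 3, 3 and 1.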

How the data were processed

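ATAC-seq peak lists of 16 libraries were used. By the study's methods the authors trimmed reads with Trimmomatic, aligned them with BWA 0.7.17 to GRCm38, kept reads mapped to 1 site, removed blacklisted regions and called peaks in each library with MACS2 2.2.7.1 in paired-end mode. The deposited lists give for each peak a score, a fold enrichment (a ratio of pileup to local background, each with 1 added), a -log10 p-value, a -log10 q-value (lowest 1.30) and a summit. The score, 10 times the -log10 q, was not used. No shift for transposase cuts is stated. Retention of reads with 1 site lowers coverage in repeats that are near-identical elsewhere, and the lists differ in depth.

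Pileup and background were solved from the deposited fold enrichment and -log10 p-value, to a relative tolerance of 0.001, for 99.98% of 628947 autosomal peaks and for all member peaks. Peaks were merged at an overlap of 1 bp and placed against GENCODE M21. GC content, soft-masked repeats, motifs and runs of 12 dinucleotide units were read from the RefSeq GRCm38 sequence within 150 bases of a summit, and a region is represented by its summit of highest fold enrichment. Members and gene lists were chosen with earlier results of these data known, and the dinucleotide repeats were added after values were seen. The labels gave each library its group. Fold enrichment, GC and repeats per library were compared between groups by a two-sided exact permutation test over 70 arrangements, adjusted by Benjamini-Hochberg over 4 comparisons, and within libraries by an exact sign permutation over 65536 patterns. Replicate numbers did not pair libraries (correlation of deviations between same-numbered libraries -0.019 to 0.028). Tests were checked on simulated data. Python 3.11.15, NumPy 2.4.6, pandas 2.3.3 and SciPy 1.17.1 were used.

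Named regions were the 6 members of 4 libraries with the highest median fold enrichment, those held by all 4 libraries of a group and no other (at most 4 a group), the highest in each group, the 3 fullest windows of 1 Mb and, for at most 12 list genes, the member with most libraries and then the highest fold enrichment within 100 kb. A region and a marker gene are not reported here. Other members near list genes (Ifng, Ccr7, Cd44) were described after their values were seen. Alternatives were a -log10 q of at least 5, equal-sized lists, peaks covering at least 0.5 of a region, members of 3 or 4 libraries, more than 50 kb from a start, coverage as a covariate, a replicate block, leaving out each library and, added after seeing the data, members without a dinucleotide repeat.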

Additional observations from a re-analysis of the deposited data

Results flagged for a closer look

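In 24 combinations of group and measure looked at, 2 single libraries lay far from the other 3 of their group, and chance flags about 1 in 20 such groups. TPdh-/- TM 2 held the most members of its group, 12.23 on the log2 scale (4801 members), and its gap to the next library took up 0.8292 of the group's range. In WT TM 1 the repeat-masked share of windows at member peaks was 46.2%, against 48.7 to 49.0% in the other 3 WT TM libraries, a gap of 0.887 of the range.

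Without coverage as a covariate, the difference between TPdh-/- and WT was itself not the same in TM and in TE for fold enrichment and GC content. Taken as the effect in TM minus the effect in TE, it was -2.95 for the log2 number of members held and -6.39 points for the share of peaks in members, which was lower in TPdh-/- TM than WT TM and higher in TPdh-/- TE than WT TE. Members were selected on how many libraries held them, so these values are a description and no p-value is given for them. The other measures were tested by a permutation of residuals (100000 draws, adjusted over 5 measures). That adjustment took in members held and share, so the adjusted p of fold enrichment depends in part on them. For the median fold enrichment it was -0.43 (permutation p = 0.0191, adjusted p = 0.0239) and for GC content 2.89 points (permutation p = 0.00125, adjusted p = 0.00625). The TPdh-/- TM medians of fold enrichment were those of a pileup of 4 at each library's coverage. The test of fold enrichment therefore cannot tell enrichment from coverage. For dinucleotide repeats the effect in TM minus that in TE was -16.9 points (permutation p = 0.0564), which does not pass. The permutation takes the groups to spread alike, though the SD of GC content was 1.43 points in WT TE. In the other 3 groups it was 0.0677 to 0.168 points. The TE genotypes also separated in the GC content of intronic peaks, where the effect in TM minus that in TE was not tested. Background coverage was 0.636 to 1.55 in WT TE and 0.173 to 0.572 in the other 3 groups. With coverage as a covariate in each culture, the difference between TPdh-/- and WT was -0.669 points in TM and -0.730 points in TE for the share, -0.10 and 1.18 for log2 members held, -0.53 and 0.09 for fold enrichment, -0.0763 and -1.23 points for GC content and -4.69 and -6.03 points for dinucleotide repeats, and no test of TM against TE was made with the covariate.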

How the results depend on the processing

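Differences between groups are given as TPdh-/- TM minus WT TM (A), TPdh-/- TE minus WT TE (B), WT TM minus WT TE (C) and TPdh-/- TM minus TPdh-/- TE (D), for log2 members held, member share in percentage points, median fold enrichment, GC and dinucleotide repeats in points. None passed after adjustment, and members held and share are a description, since members were selected on the holding libraries, so the values below are those that turned direction or crossed 0.05 in unadjusted p, and separated members are counted for the first-named and then the second-named group. With a -log10 q of at least 5, members held was 0.95 in A, the share -2.51 in A, 10.9 in B and 11.1 in C, fold enrichment -0.25 in A, 0.52 in B, 0.90 in C and 0.13 in D, and repeats -16.9 in A, 3.56 in B and 3.45 in C, with separated members of 4 and 2 (A), 3 and 1 (B), 2 and 1 (C) and 4 and 3 (D); against single-library regions the repeats came to 8.90 points. With equal-sized lists, members held was -0.20 in A, 2.39 in C and -0.16 in D, the share -1.84 in A, 11.4 in B and 11.7 in C, fold enrichment 1.00 in A, 1.76 in B and 0.84 in D, and repeats -13.4 in A, 10.4 in B and 7.87 in C. Where peaks had to cover 0.5 of a region, members held was 0.90 and the share -1.47 in A, and separated members were 21 and 8 (A), 29 and 2 (B), 10 and 2 (C) and 21 and 29 (D). For members of 3 or 4 libraries, members held was 0.40 in A, the share -0.695 in D, fold enrichment -0.27 in A, 0.28 in C and 0.16 in D, and repeats 3.75 in B, 5.02 in C and -0.0200 against intronic regions. With background coverage as a covariate, members held was -0.10 in A, 1.18 in B and -0.98 in C, the share -0.669 in A and -0.730 in B, fold enrichment 0.0907 in B, 0.32 in C and -0.30 in D, GC -1.23 in B and -0.271 in C, and repeats -4.69 in A and 4.52 in C. Over 50 kb from a start, the difference from intronic regions was -0.0247 in fold enrichment and -1.70 points in repeats. With all 4 libraries required, separated members were 4 and 0 (A), 3 and 1 (B), 0 and 1 (C) and 4 and 3 (D), and within 50 kb 5760 genes had a member. For members without a dinucleotide repeat, an alternative chosen after seeing the data, the share was 0.0258 in A, 1.59 in B, 1.74 in C and 0.173 in D, fold enrichment -0.42 in B, -0.0927 in C and -0.015 in D, and separated members were 11 for WT TM in A, 37 for TPdh-/- TE in B, 13 for WT TM in C and 30 for TPdh-/- TE in D. The cause of these changes was not tested.

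Within libraries, the masked share against single-library regions (5.41 points) was 3.15 with a -log10 q of at least 5, that against intronic regions (5.11) was 8.06 for members without a dinucleotide repeat, GC against single-library regions (0.962) was 1.63 for members of 3 or 4 libraries, and GC against intronic regions (-0.754) was -1.17 over 50 kb from a start. GC in B and C was -5.28 and -5.17 points without dinucleotide repeats.

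Replicate numbers did not pair the libraries, and a replicate block cannot go below an exact permutation p of 0.125. With it the values were 0.69 (A) and 3.64 (B) for log2 members held, -3.34 points (A) for share, -0.64 (A) and -0.36 (D) for fold enrichment, -3.22 (B) and -3.07 points (C) for GC and -22.7 (A) and -18.9 points (D) for dinucleotide repeats. Leaving out 1 library at a time gave, for A, B, C and D, log2 members held of 0.45 to 0.89, 2.91 to 4.48, 2.36 to 3.93 and -0.0196 to 0.30, shares of -4.12 to -2.59, 2.32 to 4.43, 3.70 to 5.83 and -2.39 to -1.42, fold enrichments of -0.73 to -0.58, -0.33 to -0.13, 0.00786 to 0.16 and -0.44 to -0.24, GC of -0.401 to -0.274, -3.90 to -2.87, -3.76 to -2.72 and -0.253 to -0.125, and dinucleotide repeats of -26.4 to -19.2, -9.80 to -2.03, -5.96 to 1.81 and -21.0 to -16.0. Repeats in C turned without WT TE 4, WT TM 1 or WT TM 4, and members held in D without TPdh-/- TE 2. Against intronic regions it gave GC of -0.858 to -0.722, repeats of 4.96 to 5.45, fold enrichment of 0.0062 to 0.0285 and dinucleotide repeats of -0.362 to 0.961, and against single-library regions 0.925 to 1.04, 5.16 to 5.70 and 24.96 to 26.6. Pileups of 4 to 13 fragments at a typical member summit limit what any library can show.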
